A study of Mus musculus with 12 samples.

Results

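Tissue factor, encoded by F3, and 7 further genes of coagulation and fibrinolysis were measured in mouse lung on 12 Affymetrix whole-genome expression arrays. The set comprises F3, Tfpi, Thbd, Procr, Vwf, Plat, Plau and Plaur, 8 of 18193 genes that had a probe set with a single symbol in the platform annotation. F3 was selected on its difference between Radiation and Control lungs, where it was among the genes of lowest p, and the other members were added for their place in the same pathway with earlier results of these data known. For each gene, the probe set with the highest mean over the 12 arrays was used. Of the 8 members, 7 passed a filter on low values, which kept a probe set above log2 4.85, the median of all values, on at least 3 arrays. Plau did not.

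All animals were wild-type mice, and each group held 3 arrays of lung RNA. SIMVA-Radiation lungs came from mice given both a single exposure of 25 Gy and simvastatin, an inhibitor of HMG-CoA reductase used as a cholesterol-lowering drug, at 10 mg/kg by intraperitoneal injection 3 times a week before and after exposure. Radiation lungs came from mice given 25 Gy alone, and both irradiated groups were sampled 6 weeks after exposure. SIMVA lungs came from mice given simvastatin alone, and Control lungs from mice given vehicle. The labels give an age of 8 to 12 weeks for the 3 treated groups and of 8 to 10 weeks for Control, so age and treatment cannot be told apart in any comparison with Control. The labels do not state that the arrays of a group are separate animals, so the p-values speak only of the spread among the arrays, which may be technical. A free-text description that names a control animal for every array was not used.

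Coagulation starts when tissue factor, a membrane protein held mainly by cells outside the blood stream, meets factor VII and activates factor X. Endothelial cells restrain the cascade through tissue factor pathway inhibitor (Tfpi) and through thrombomodulin (Thbd) and the endothelial protein C receptor (Procr), which together turn thrombin towards activation of protein C. Fibrin is removed by plasmin, made from plasminogen by the tissue-type (Plat) and urokinase-type (Plau) activators, the second of which acts at the cell surface through its receptor Plaur. The lung is rich in both tissue factor and thrombomodulin.

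The arrays departed from their labels in respects that touch every comparison. SIMVA 1, SIMVA 3 and SIMVA-Radiation 3 were near-identical, with an SD of log2 differences of 0.111 to 0.118 over probe sets of mean above log2 9, against at least 0.336 in the other 63 pairs. SIMVA 1 and SIMVA 3 were averaged and counted as 1 sample, which left 11 samples in the fit, and SIMVA-Radiation 3 kept its label. Cdkn1a, the p53 target that encodes p21 and is induced by radiation, stood at log2 13.19, 13.17 and 11.18 in SIMVA-Radiation lungs, at 13.36, 13.12 and 13.42 in Radiation lungs, at 11.09, 13.36 and 11.11 in SIMVA lungs and at 10.25, 10.69 and 13.01 in Control lungs. SIMVA-Radiation 3, SIMVA 2 and Control 3 thus lay with the other labelled exposure, and each member's differences are given with and without these 3 arrays. Without them the SIMVA arm is 1 averaged sample, taken to vary like the other groups, and SIMVA-Radiation and Control keep 2 each. Lung markers were high throughout: the summed level of alveolar type 2 cell markers, led by Sftpc, was log2 17.08 to 17.72 on the 12 arrays.

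Promoter windows were searched for F3, Tfpi, Procr and Plaur; those of Thbd, Vwf, Plat and Plau were not analysed here. The windows of F3, Procr and Plaur are shown because each has an AP-1 element, the binding letters of Fos and Jun family factors, in the 300 bases around the annotated start. The sequences run from 250 bases before the start to 50 bases after it on RefSeq's GRCm38.p6. Capitals mark AP-1 (TGANTCA), Egr (GCGNGGGCG) and GC box (GGGCGG) matches on either strand, and adjacent capitals in Plaur are overlapping matches. F3 lies on the + strand at chr3:121723287-121723586, Procr on the + strand at chr2:155750967-155751266 and Plaur on the + strand at chr7:24462233-24462532.
F3: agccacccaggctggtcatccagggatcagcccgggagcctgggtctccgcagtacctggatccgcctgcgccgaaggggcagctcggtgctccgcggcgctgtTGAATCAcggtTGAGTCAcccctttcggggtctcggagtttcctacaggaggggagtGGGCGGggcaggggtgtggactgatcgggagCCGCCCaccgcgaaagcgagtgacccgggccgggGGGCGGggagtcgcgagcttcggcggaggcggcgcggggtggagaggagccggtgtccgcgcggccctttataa
Procr: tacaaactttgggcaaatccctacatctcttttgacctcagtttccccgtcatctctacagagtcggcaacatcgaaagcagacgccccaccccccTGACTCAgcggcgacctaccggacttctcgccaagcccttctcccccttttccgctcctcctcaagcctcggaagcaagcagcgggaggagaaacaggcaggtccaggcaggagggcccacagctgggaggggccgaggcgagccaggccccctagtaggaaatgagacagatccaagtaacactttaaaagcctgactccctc
Plaur: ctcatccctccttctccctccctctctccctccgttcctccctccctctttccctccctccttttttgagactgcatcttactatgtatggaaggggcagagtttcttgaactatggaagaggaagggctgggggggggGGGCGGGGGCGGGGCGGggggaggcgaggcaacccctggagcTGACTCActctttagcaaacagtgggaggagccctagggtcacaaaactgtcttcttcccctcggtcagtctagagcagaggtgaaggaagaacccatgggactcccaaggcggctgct

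F3 held 2 AP-1 matches, TGAATCA starting 146 bases and TGAGTCA starting 135 bases before the annotated start, and 3 GC boxes, the letters that Sp1-type factors bind. Procr held 1 AP-1 match and no GC box. Plaur held 1 AP-1 match, 3 GC boxes and 1 Egr match, GCGGGGGCG, that overlaps the GC boxes. In the human tissue factor gene, paired AP-1 elements and GC-rich Sp1 and Egr-1 elements of the proximal promoter are known. The 2 Tfpi windows in the table, for alternative starts, held no AP-1 match and 1 GC box each. Over all 32851 promoter windows of the same length, 7.81% held an AP-1 match, 35.7% a GC box and 5.55% an Egr match. For NF-kB only 1 pattern was searched. It was present in 1.63% of windows and matched none of the windows of these 4 genes. Variants of that pattern were not searched, so F3 and the other genes cannot be said to lack an NF-kB site. These matches describe letters only.

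F3 stood at log2 11.66, 11.88 and 11.48 in SIMVA-Radiation lungs, at 12.05, 12.41 and 11.76 in Radiation lungs, at 11.44, 11.23 and 11.37 in SIMVA lungs and at 10.75, 10.96 and 11.26 in Control lungs. Radiation lungs had the highest mean, 12.07 ± 0.32, followed by SIMVA-Radiation at 11.67 ± 0.20, SIMVA at 11.35 ± 0.11 and Control at 10.99 ± 0.26 (SD, n = 3 arrays each). Neighbours in this order overlapped except SIMVA-Radiation and SIMVA, whose nearest arrays, SIMVA-Radiation 3 and SIMVA 1, belong to the near-identical set. The Radiation and Control arrays did not overlap.

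The F3 difference, Radiation minus Control, was 1.08 ± 0.20 (log2, SE), a 2.12-fold higher intensity; F3 was selected on this value and no test is attached to it. The SIMVA-Radiation minus Radiation difference of F3 was −0.40 ± 0.20, the SIMVA-Radiation minus Control difference 0.68 ± 0.20 and the SIMVA minus Control difference 0.33 ± 0.23; these share arrays with the selecting comparison and are descriptions too. Of these, SIMVA-Radiation minus Radiation was −0.23 without Radiation 2 and SIMVA minus Control 0.21 without Control 1. SIMVA-Radiation minus SIMVA uses other arrays for its means, and there F3 differed by 0.35 ± 0.23, a 1.28-fold higher intensity with a 95% interval of −0.15 to 0.86 (limma adjusted p = 1). Its SE, interval and p also draw on the spread within Radiation and Control, so they are not independent of the selection. F3 was above the SIMVA mean on 3 of 3 SIMVA-Radiation arrays. Of these, SIMVA-Radiation 3, at 11.48, is near-identical to SIMVA 1, at 11.44, and SIMVA 3, at 11.37, so it is not an independent array there. Without the 3 arrays that went against their labels, the F3 differences were 1.22 for Radiation minus Control, −0.30 for SIMVA-Radiation minus Radiation, 0.91 for SIMVA-Radiation minus Control, 0.55 for SIMVA minus Control and 0.36 for SIMVA-Radiation minus SIMVA.

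**Figure D1:**
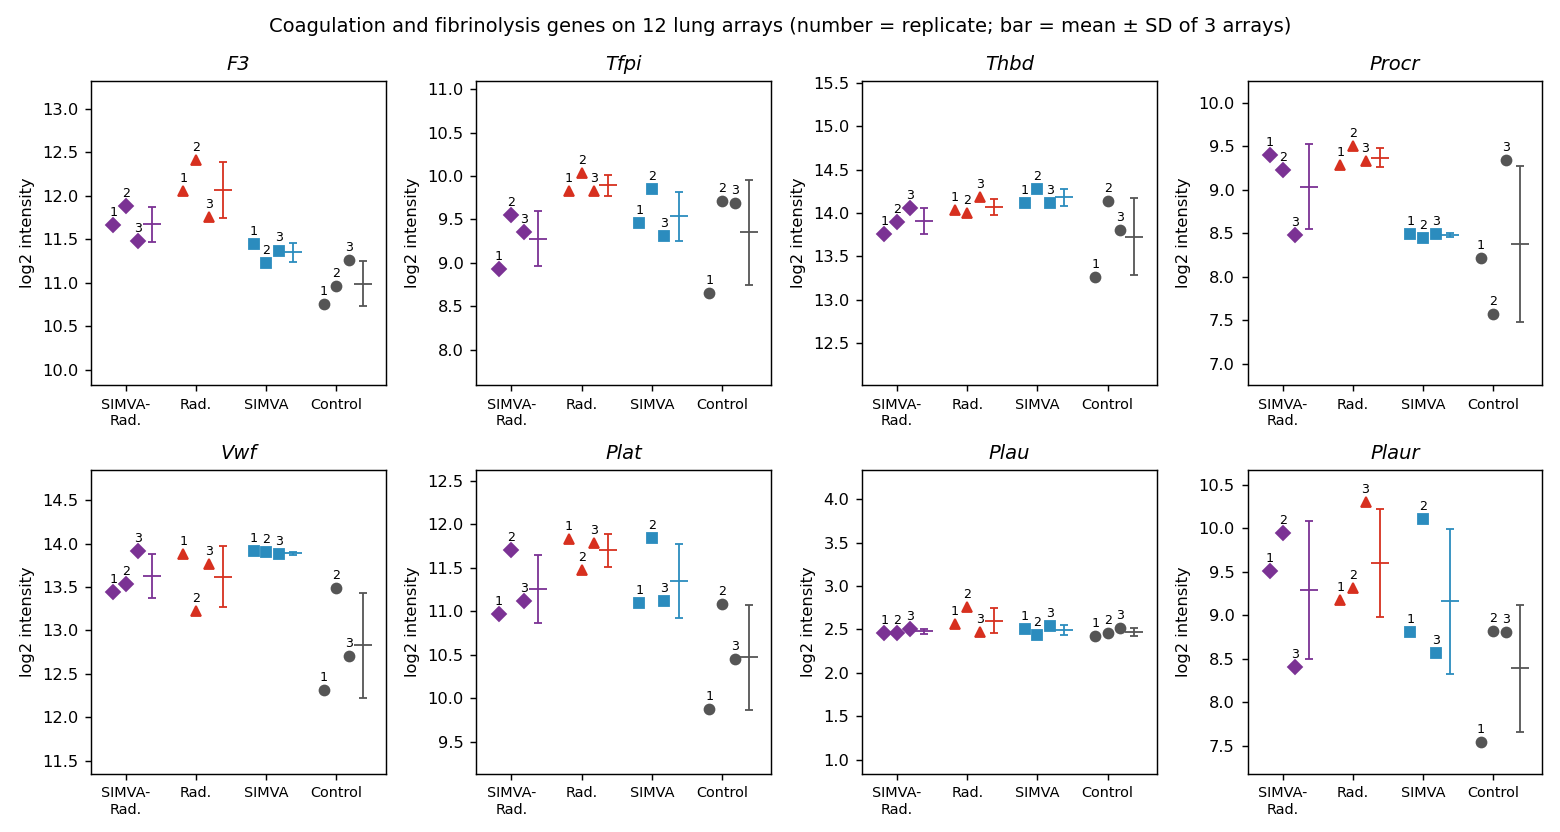
Deposited log2 intensity of each of the 8 members on the 12 arrays, with groups along the x axis, a numbered point per array and a bar for the mean ± SD of 3 arrays; every panel spans the same number of log2 units. F3 shows no overlap between Radiation and Control arrays, Plau lies below log2 2.76 on every array, and Procr shows Control 3, at 9.34, among the Radiation arrays.

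Tfpi, the inhibitor of the tissue factor and factor VII complex, was compared next. Its levels were log2 8.93, 9.56 and 9.36 in SIMVA-Radiation lungs, 9.83, 10.03 and 9.83 in Radiation lungs, 9.46, 9.85 and 9.31 in SIMVA lungs and 8.66, 9.71 and 9.69 in Control lungs. All 3 SIMVA-Radiation arrays lay below all 3 Radiation arrays, with a difference of −0.61 ± 0.30 (log2, SE; limma adjusted p = 0.835). The 95% interval of that difference was −1.29 to 0.06. All 3 Radiation arrays lay above all 3 Control arrays by a narrow margin, and the difference of 0.54 ± 0.30 was 0.19 without Control 1, the lowest Tfpi array, and 0.22 with array weights.

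Tfpi had 4 probe sets, all past the filter, and they had the same sign in both of these comparisons. SIMVA-Radiation minus Radiation was −0.61, −0.41, −0.27 and −0.83 over the 4 probe sets. In that comparison the groups did not overlap in the first and last probe sets. In the second, SIMVA-Radiation 2, at 9.33, exceeded Radiation 1, at 9.19. In the third, SIMVA-Radiation 3, at 9.06, exceeded Radiation 1, at 8.70. Radiation minus Control was 0.54, 0.20, 0.44 and 0.46, and the groups did not overlap in the first of these probe sets, whereas Control 2 exceeded at least 1 Radiation array in the other 3. In the other comparisons Tfpi differed by −0.34 ± 0.34 (SIMVA-Radiation minus SIMVA, adjusted p = 1), 0.26 ± 0.34 (SIMVA minus Control, adjusted p = 0.990) and −0.07 ± 0.30 (SIMVA-Radiation minus Control, adjusted p = 0.995), and the arrays overlapped in each. The signs of the last 2 were not stable: without Control 1 they were −0.085 and −0.42, and without Control 2 they were 0.44 and 0.11. SIMVA-Radiation minus SIMVA was −0.10 without SIMVA 2. Without the 3 arrays at odds with their labels, Tfpi differed by −0.65 in SIMVA-Radiation minus Radiation, 0.71 in Radiation minus Control, −0.14 in SIMVA-Radiation minus SIMVA, 0.20 in SIMVA minus Control and 0.056 in SIMVA-Radiation minus Control.

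Thbd, the endothelial thrombin receptor that starts protein C activation, had the narrowest range of the 7 measured members over the 12 arrays. It stood at log2 13.76, 13.90 and 14.06 in SIMVA-Radiation lungs, 14.04, 14.00 and 14.18 in Radiation lungs, 14.12, 14.28 and 14.12 in SIMVA lungs and 13.26, 14.14 and 13.80 in Control lungs. SIMVA-Radiation arrays all lay below SIMVA arrays, by −0.29 ± 0.22 (adjusted p = 1). The nearest arrays, SIMVA-Radiation 3 at 14.06 and SIMVA 1 and SIMVA 3 at 14.12, belong to the near-identical set. Thbd differed by −0.17 ± 0.20 in SIMVA-Radiation minus Radiation (adjusted p = 0.879), 0.47 ± 0.22 in SIMVA minus Control (adjusted p = 0.990) and 0.17 ± 0.20 in SIMVA-Radiation minus Control (adjusted p = 0.995). Radiation minus Control was 0.34 ± 0.20, with overlapping arrays. Without Control 1, the lowest Thbd array, Radiation minus Control was 0.10, SIMVA minus Control 0.23 and SIMVA-Radiation minus Control −0.063; without Control 2 they were 0.54, 0.67 and 0.38. With array weights, Radiation minus Control was −0.039 and SIMVA minus Control 0.12. Thbd differed, without the 3 arrays at odds with their labels, by −0.29 in SIMVA-Radiation minus SIMVA, −0.24 in SIMVA-Radiation minus Radiation, 0.42 in SIMVA minus Control, 0.13 in SIMVA-Radiation minus Control and 0.37 in Radiation minus Control.

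Procr, the receptor that presents protein C to the thrombin and thrombomodulin complex, divided the arrays otherwise. Its levels were log2 9.40, 9.23 and 8.48 in SIMVA-Radiation lungs, 9.28, 9.50 and 9.34 in Radiation lungs, 8.50, 8.45 and 8.49 in SIMVA lungs and 8.21, 7.57 and 9.34 in Control lungs. SIMVA-Radiation 3 lay at the SIMVA level and Control 3 at the Radiation level, as for Cdkn1a, whereas SIMVA 2 lay with the other SIMVA arrays. The Radiation minus Control difference was 0.996 ± 0.41 with all arrays, 1.48 without Control 3, when the groups no longer overlapped, and 0.59 without Control 2, the lowest Procr array. SIMVA-Radiation minus SIMVA was 0.57 ± 0.45 (adjusted p = 1) with all arrays and 0.84 without SIMVA-Radiation 3. In SIMVA-Radiation minus Radiation, Procr differed by −0.34 ± 0.41 (adjusted p = 0.882), and this was −0.057 without SIMVA-Radiation 3 and −0.52 without SIMVA-Radiation 1. SIMVA minus Control was 0.10 ± 0.45 (adjusted p = 0.994) and SIMVA-Radiation minus Control 0.66 ± 0.41 (adjusted p = 0.995). Without Control 2 these were −0.31 and 0.26, and without Control 3 they were 0.58 and 1.14. Without all 3 arrays at odds with their labels, Procr differed by 1.48 in Radiation minus Control, 0.82 in SIMVA-Radiation minus SIMVA, −0.057 in SIMVA-Radiation minus Radiation, 0.60 in SIMVA minus Control and 1.42 in SIMVA-Radiation minus Control.

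**Figure D2:**
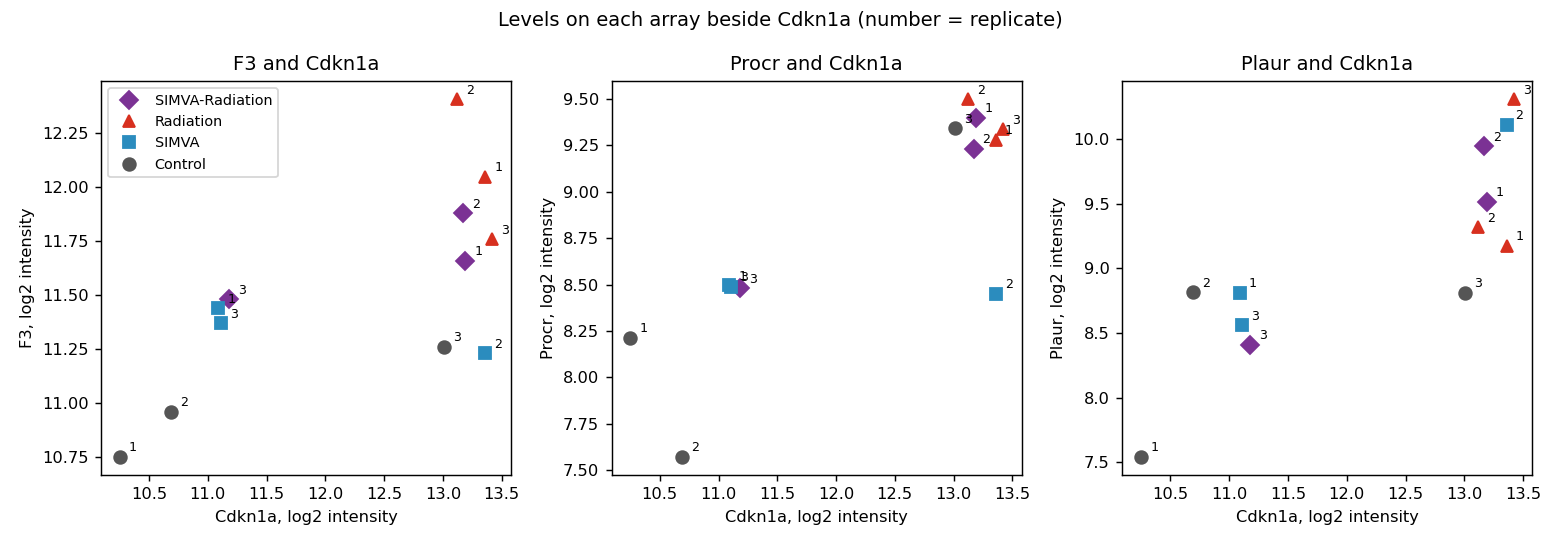
Log2 intensity of F3, Procr and Plaur against that of Cdkn1a on each of the 12 arrays, with colour and marker for the group and a number for the replicate. SIMVA 2, Control 3 and SIMVA-Radiation 3 lie away from their groups along the Cdkn1a axis; for F3, SIMVA 2 at 11.23 stays beside the other SIMVA arrays, and for Plaur, SIMVA 2 at 10.11 lies among the highest arrays.

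Vwf, von Willebrand factor, carries platelets to exposed matrix and is stored in endothelial cells and megakaryocytes. It was log2 13.44, 13.54 and 13.92 in SIMVA-Radiation lungs, 13.88, 13.22 and 13.77 in Radiation lungs, 13.91, 13.90 and 13.88 in SIMVA lungs and 12.31, 13.49 and 12.71 in Control lungs. SIMVA arrays all lay above Control arrays, by 1.06 ± 0.32 (log2, SE), a 2.09-fold higher intensity that did not pass the test over all genes (adjusted p = 0.990). SIMVA-Radiation minus Control was 0.80 ± 0.29 (adjusted p = 0.995) and Radiation minus Control 0.79 ± 0.29, with Control 2 inside the range of the irradiated arrays. SIMVA-Radiation minus Radiation was 0.01 ± 0.29 (adjusted p = 0.997; 95% interval −0.64 to 0.66), and SIMVA-Radiation minus SIMVA was −0.26 ± 0.32 (adjusted p = 1). The last was −0.41 without SIMVA-Radiation 3 and −0.17 without SIMVA-Radiation 1. Radiation minus Control was 0.52 without Control 1 and 0.26 with array weights, which also gave 0.51 for SIMVA minus Control and 0.16 for SIMVA-Radiation minus Control. Without the 3 arrays at odds with their labels, Vwf differed by 0.99 in SIMVA minus Control, 0.59 in SIMVA-Radiation minus Control, 0.73 in Radiation minus Control, −0.13 in SIMVA-Radiation minus Radiation and −0.40 in SIMVA-Radiation minus SIMVA.

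Plat, tissue-type plasminogen activator, made by endothelial cells, was log2 10.97, 11.71 and 11.12 in SIMVA-Radiation lungs, 11.83, 11.48 and 11.79 in Radiation lungs, 11.09, 11.84 and 11.12 in SIMVA lungs and 9.87, 11.08 and 10.45 in Control lungs. Control lungs were the lowest group, and the Radiation arrays all lay above them, with a difference of 1.23 ± 0.33 (2.35-fold). SIMVA arrays lay above Control arrays too, by 1.01 ± 0.37 (adjusted p = 0.990), but SIMVA 1, at 11.09, exceeded Control 2, at 11.08, only narrowly. SIMVA-Radiation minus Control was 0.80 ± 0.33 (adjusted p = 0.995), SIMVA-Radiation minus Radiation −0.44 ± 0.33 (adjusted p = 0.835) and SIMVA-Radiation minus SIMVA −0.21 ± 0.37 (adjusted p = 1). SIMVA minus Control was 0.64 without SIMVA 2, SIMVA-Radiation minus Control 0.50 without Control 1, SIMVA-Radiation minus Radiation −0.66 without SIMVA-Radiation 2 and −0.29 without SIMVA-Radiation 1, and SIMVA-Radiation minus SIMVA 0.16 without SIMVA 2 and −0.43 without SIMVA-Radiation 2. With array weights, Radiation minus Control was 0.73, SIMVA minus Control 0.49 and SIMVA-Radiation minus Control 0.34. Plat differed, without the 3 arrays at odds with their labels, by 1.23 in Radiation minus Control, 0.63 in SIMVA minus Control, 0.86 in SIMVA-Radiation minus Control, −0.36 in SIMVA-Radiation minus Radiation and 0.23 in SIMVA-Radiation minus SIMVA.

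A second Plat probe set, at log2 3.20 to 4.55, did not pass the filter and was not tested.

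Plau, urokinase, was at log2 2.43 to 2.76 on the 12 arrays, with 0 of 12 above the filter, and its second probe set was at 2.17 to 2.25. It was not tested, and its group differences are not read. Plaur, the urokinase receptor, was by contrast well measured and the most variable member. It was log2 9.51, 9.94 and 8.41 in SIMVA-Radiation lungs, 9.18, 9.32 and 10.31 in Radiation lungs, 8.81, 10.11 and 8.56 in SIMVA lungs and 7.54, 8.82 and 8.81 in Control lungs.

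All 3 Radiation arrays exceeded all 3 Control arrays in Plaur, with a difference of 1.21 ± 0.55, which was 0.79 without Control 1 and 0.57 with array weights. SIMVA minus Control was 1.01 ± 0.62 (adjusted p = 0.990) and was 0.30 without SIMVA 2, which alone among SIMVA arrays exceeded log2 10, and 0.58 without Control 1. SIMVA-Radiation minus Control was 0.90 ± 0.55 (adjusted p = 0.995), and was 1.34 without SIMVA-Radiation 3, 0.47 without Control 1 and 0.57 without SIMVA-Radiation 2. SIMVA-Radiation minus Radiation was −0.31 ± 0.55 (adjusted p = 0.919), with the other sign without SIMVA-Radiation 3 (0.13) or without Radiation 3 (0.042) and at −0.64 without SIMVA-Radiation 2. SIMVA-Radiation minus SIMVA was −0.11 ± 0.62 (adjusted p = 1), with the other sign without SIMVA 2 (0.60) or without SIMVA-Radiation 3 (0.33) and at −0.43 without SIMVA-Radiation 2. Without all 3 arrays at odds with their labels, Plaur differed by 1.42 in Radiation minus Control, 0.51 in SIMVA minus Control, 1.55 in SIMVA-Radiation minus Control, 0.13 in SIMVA-Radiation minus Radiation and 1.04 in SIMVA-Radiation minus SIMVA.

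The 7 measured members were then counted against all 11602 genes tested. At a limma adjusted p under 0.05, 0 members and 0.0% of all genes were called in each of the 5 comparisons; at an unadjusted p under 0.05, 600 genes passed in Radiation minus Control, 518 in SIMVA-Radiation minus Radiation, 327 in SIMVA-Radiation minus Control, 214 in SIMVA minus Control and 153 in SIMVA-Radiation minus SIMVA. In Radiation minus Control, 4 of 7 members (F3, Tfpi, Plat and Plaur) were higher without overlap of arrays and 0 were lower, where 4.86% and 2.03% of all genes were; nothing is read from this, since F3 was selected there and the others with that comparison known. In SIMVA-Radiation minus Control, 1 of 7 (F3) was higher and 0 lower, against 2.67% and 3.87% of all genes. In SIMVA minus Control, 2 of 7 (Vwf and Plat) were higher and 0 lower, against 3.36% and 7.96%.

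In SIMVA-Radiation minus Radiation, 0 of 7 members were higher without overlap and 1 (Tfpi) was lower, against 3.7% and 13.5% of all genes, a share near the background. In SIMVA-Radiation minus SIMVA, 1 (F3) was higher and 1 (Thbd) lower, against 7.76% and 6.76%. For both genes the nearest samples were SIMVA-Radiation 3 and the averaged SIMVA sample, which are near-identical. Without the 3 arrays that went against their labels, Procr joined the members higher in Radiation than in Control lungs, 5 of 7, while the share of all genes grew to 25.8%. Without the same arrays, 3 of 7 (F3, Procr and Plaur) were higher in SIMVA-Radiation than in SIMVA lungs and 2 (Thbd and Vwf) lower, against 35.3% and 44.8% of all genes. There the SIMVA arm is 1 averaged sample against 2 arrays, so most genes do not overlap and the count says little.

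The median difference of the 7 members was 0.996 in Radiation minus Control, where the median of all genes was 0.08. It was 0.68 in SIMVA-Radiation minus Control and 0.47 in SIMVA minus Control, against 0.00 for all genes in each. It was −0.34 in SIMVA-Radiation minus Radiation, against −0.09 for all genes, and −0.21 in SIMVA-Radiation minus SIMVA, against 0.00. All 7 members were above 0 in Radiation minus Control, where 60.4% of all genes were, and 7 of 7 in SIMVA minus Control, where 49.6% were. In SIMVA minus Control without Control 1, Tfpi was −0.085, Procr 0.014, F3 0.21, Thbd 0.23, Plaur 0.58, Plat 0.71 and Vwf 0.80. Only Vwf, at 0.01, was above 0 in SIMVA-Radiation minus Radiation, where 37.4% of all genes were. Nothing is read from the Radiation minus Control median and signs, since F3 was selected there and the others with that comparison known. Comparisons that share Control or Radiation arrays are not independent of that comparison or of each other.

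**Figure D3:**
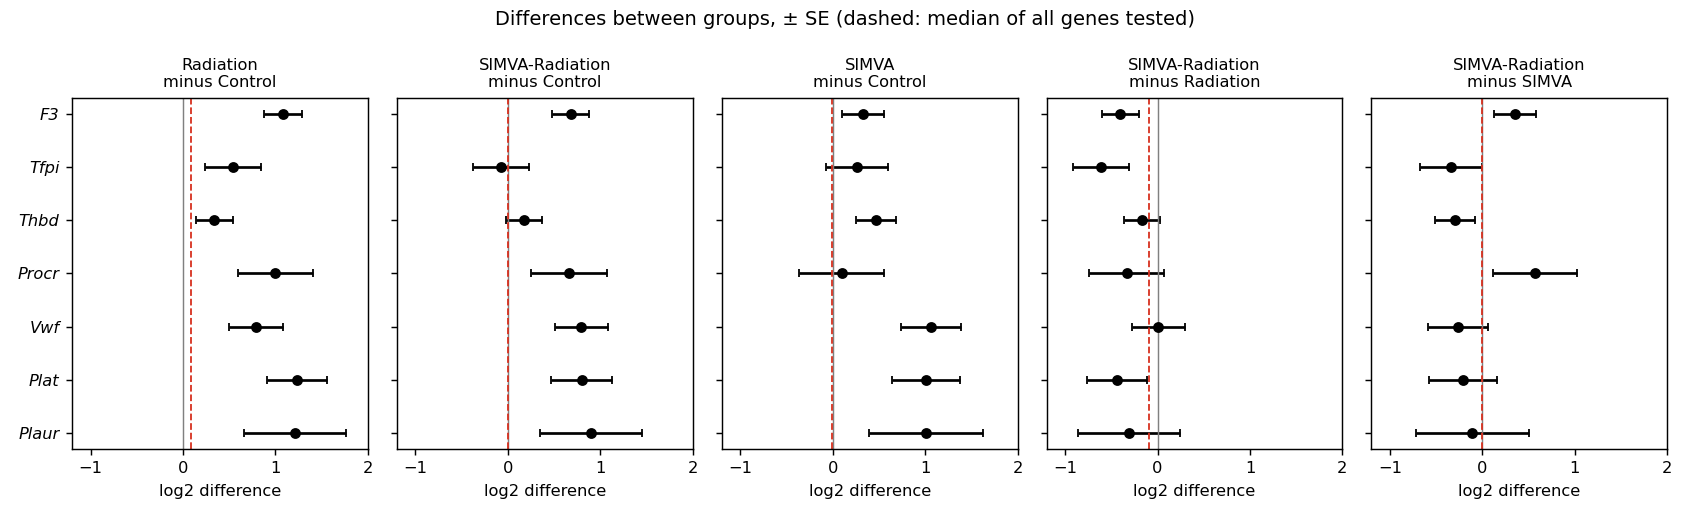
Log2 difference ± SE of the 7 measured members in 5 comparisons, 1 panel each, with a solid line at 0 and a dashed line at the median of all genes tested. All 7 points lie right of 0 in Radiation minus Control and in SIMVA minus Control, and 6 of 7 lie left of it in SIMVA-Radiation minus Radiation.

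Endothelial markers moved with several members. All 18 listed markers, such as Calcrl, Pecam1 and Cdh5, passed the filter, and their summed level ran from log2 16.47 to 16.94 in SIMVA-Radiation lungs, 16.68 to 17.06 in Radiation lungs, 16.97 to 17.15 in SIMVA lungs and 16.14 to 17.21 in Control lungs, with Control 1 lowest and Control 2 highest of all arrays. The mean of the 18 markers differed by 0.28 in Radiation minus Control (16 of 18 above 0), by 0.51 in SIMVA minus Control (18 of 18), by 0.15 in SIMVA-Radiation minus Control (11 of 18), by −0.12 in SIMVA-Radiation minus Radiation (6 of 18) and by −0.35 in SIMVA-Radiation minus SIMVA (0 of 18). In bulk lung RNA, fewer cells of a type and less RNA per cell cannot be told apart.

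Across the 11 samples, Thbd followed the endothelial sum most closely of the members (Pearson r = 0.95, Spearman rho = 0.96, and r = 0.96 without the 2 samples farthest from the median sum). Vwf had r = 0.80 (rho = 0.69) and Plat r = 0.69 (rho = 0.56), whereas F3 had r = 0.07 (rho = −0.13) and Procr r = −0.30 (rho = −0.45). Alveolar markers moved with some members as well: the type 2 cell sum had r = 0.92 with Thbd (rho = 0.79), 0.85 with Tfpi (rho = 0.77), 0.71 with Plat (rho = 0.56) and 0.70 with Vwf (rho = 0.45), and the type 1 cell sum had r = 0.87 with Tfpi (rho = 0.71), against 0.67 (rho = 0.47) for Tfpi with the endothelial sum. Some lists of other tissue had negative values. Thbd had r = −0.67 with brown fat and adipose markers (rho = −0.88) and −0.63 with skeletal muscle markers (rho = −0.80). Tfpi had −0.59 with the adipose list (rho = −0.76). With thymocyte and T cell markers, Thbd had r = −0.85 (rho = −0.43) and Tfpi −0.81 (rho = −0.22). Without the 2 samples farthest from that list's median these were 0.09 and 0.33. All are descriptions over samples that share RNA of the same arrays and, for SIMVA-Radiation 3 and the averaged SIMVA sample, near-identical values.

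Set against the endothelial mean on each array, the Radiation minus Control differences became 0.80 for F3, 0.72 for Procr, 0.96 for Plat, 0.93 for Plaur, 0.51 for Vwf, 0.26 for Tfpi and 0.06 for Thbd. The F3 arrays of Radiation and Control overlapped on that scale. SIMVA minus Control became 0.55 for Vwf and 0.50 for Plat, again without overlap, and −0.18 for F3. SIMVA-Radiation minus SIMVA became 0.71 for F3 and 0.92 for Procr, both without overlap, and 0.06 for Thbd. What part endothelial, alveolar or other tissue content had in these differences was not tested.

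**Figure D4:**
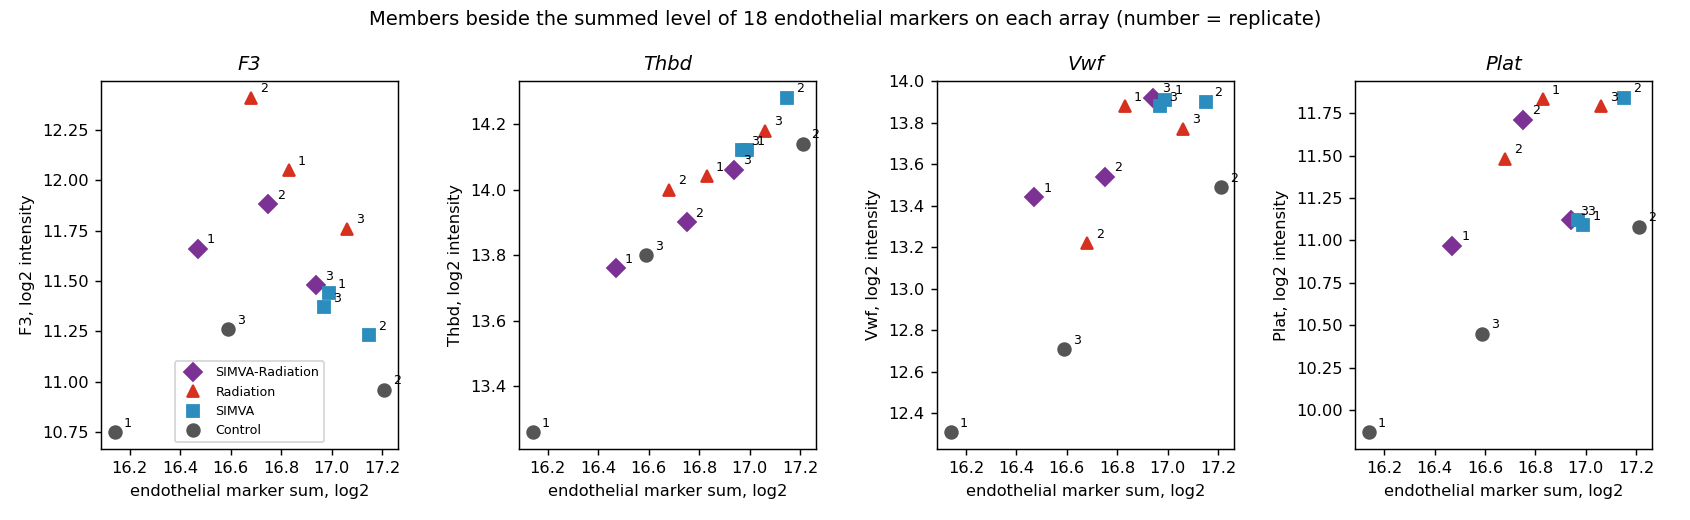
Log2 intensity of F3, Thbd, Vwf and Plat against the log2 summed intensity of 18 endothelial markers on each of the 12 arrays, with colour and marker for the group and a number for the replicate. Thbd lies along a line from Control 1 (13.26) up to SIMVA 2 (14.28), whereas the F3 points of the 12 arrays follow no such line, with Control 1 and Control 2 both low in F3 at the lowest and the highest endothelial sum.

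Tissue outside the lung parenchyma differed between arrays as well. In all marker lists, a gene below the filter is one that exceeded the filter's level on fewer than 3 of 12 arrays. Such a gene can still be high on a single array. Of 11 thymocyte and T cell markers, 6 were past the filter, with Rag1, Rag2, Ptcra, Dntt and Cd4 below it. The list summed to log2 8.25 to 12.39 in SIMVA-Radiation lungs and 8.28 to 9.13 in Radiation lungs. In SIMVA lungs it summed to 8.33 to 9.51 and in Control lungs to 8.45 to 16.04. The 16.04 was that of Control 1, the lowest array of Tfpi, Thbd, Vwf, Plat, Plaur and F3. Skeletal muscle markers, 9 of 11 past the filter with Myh2 and Pvalb below it, summed to 12.43 to 16.49 in SIMVA-Radiation lungs, 12.23 to 15.67 in Radiation lungs, 11.31 to 12.33 in SIMVA lungs and 14.94 to 15.97 in Control lungs. Platelet and megakaryocyte markers, 5 of 9 past the filter with Gp5, Gp6, Gp9 and Treml1 below it, summed to 10.99 to 12.32 in SIMVA-Radiation lungs, 10.78 to 12.27 in Radiation lungs, 11 to 12.70 in SIMVA lungs and 10.13 to 12.20 in Control lungs. Brown fat and adipose markers, 6 of 8 past the filter with Elovl3 and Lep below it, also varied. They summed to 14.58 to 16.13 in SIMVA-Radiation lungs and 13.86 to 14.18 in Radiation lungs. In SIMVA lungs they summed to 13.23 to 14.57 and in Control lungs to 10.77 to 16.07. Over all arrays, cardiac muscle markers ran from 14.73 to 16.80, and liver markers, 1 of 6 past the filter, from 8.62 to 13.08. The part of these tissues in the results was not tested.

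Other haemostasis genes were examined by list, chosen with earlier results known. Of 19 coagulation factors and cofactors, 8 were measured: F5, F7, F10, F13a1, Ggcx, Vkorc1, Lman1 and Mcfd2. Factors known to be made in the liver, such as F2, F9, F11, F12, Fga and Fgb, did not pass the filter. Of the 8, 0 passed the test in any of the 5 comparisons. Their median was 0.69 in Radiation minus Control (7 of 8 above 0) and −0.38 in SIMVA-Radiation minus Radiation (2 of 8 above 0), with medians of all genes of 0.08 and −0.09. These medians were 0.34 without Control 1 and −0.20 without Radiation 1. Of the 8, 0 were higher without overlap in Radiation minus Control, where 4.86% of all genes were.

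Ggcx, the vitamin K-dependent carboxylase that activates several factors, differed by 0.90 ± 0.49 in Radiation minus Control (adjusted p = 0.751) and by −0.76 ± 0.49 in SIMVA-Radiation minus Radiation (adjusted p = 0.835). Mcfd2, which with Lman1 carries factors V and VIII out of the endoplasmic reticulum, was log2 11.93, 11.79 and 11.99 in SIMVA-Radiation lungs and 12.34, 12.46 and 12.27 in Radiation lungs, without overlap (−0.45 ± 0.23, adjusted p = 0.835). It was the 1 of 8 that was lower without overlap there, where 13.5% of all genes were, a share near the background. F5, factor V, differed by 1.48 ± 0.82 in SIMVA-Radiation minus Control (adjusted p = 0.995), with arrays from 6.81 to 8.58 in SIMVA-Radiation lungs and 5.15 to 8.00 in Control lungs.

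F10 and F7, the factors that tissue factor engages, varied widely between arrays of 1 group and are named after their values were seen. F10 was log2 8.20, 5.84 and 3.74 in SIMVA-Radiation lungs, 7.77, 6.30 and 5.77 in Radiation lungs, 3.78, 7.70 and 3.80 in SIMVA lungs and 3.76, 5.19 and 6.53 in Control lungs. F7 was 8.40, 7.21 and 6.67 in SIMVA-Radiation lungs, 8.33, 8.79 and 7.67 in Radiation lungs, 6.48, 8.38 and 6.43 in SIMVA lungs and 4.70, 7.75 and 7.82 in Control lungs. Both were highest within the SIMVA group on SIMVA 2. Macrophage markers, 11 of 11 past the filter, had a summed level of 14.20, 15.30 and 14.20 on the SIMVA arrays and of 14.15 to 15.55 over all arrays. Across the 11 samples that sum had r = 0.93 with F10 (rho = 0.90) and r = 0.85 with F7 (rho = 0.87), against 0.54 with F3 (rho = 0.47) and 0.63 with Plaur (rho = 0.62).

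Of 11 anticoagulant genes besides the members, 3 were measured, of the plasminogen system 6 of 10 and of the thrombin and protease receptors 1 of 4, and 0 passed the test in any comparison. Pros1, protein S, the cofactor of activated protein C, was log2 11.67, 11.69 and 11.85 in Radiation lungs and 10.45, 11.60 and 11.43 in Control lungs (0.58 ± 0.28, adjusted p = 0.751). S100a10, which with annexin A2 binds plasminogen at the cell surface, was 13.43, 13.51 and 12.99 in Radiation lungs and 12.79, 12.94 and 12.96 in Control lungs (0.41 ± 0.16, adjusted p = 0.751). Neither gene's arrays overlapped, and both are named as genes of low p in their lists. Higher without overlap in that comparison were 1 of 3 anticoagulant genes and 1 of 6 plasminogen system genes, against 4.86% of all genes.

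Plgrkt, a plasminogen receptor, was log2 9.98, 9.82 and 9.91 in SIMVA-Radiation lungs and 8.78, 8.81 and 9.59 in Radiation lungs (0.84 ± 0.46, adjusted p = 0.835). Serpinb2, plasminogen activator inhibitor 2, was 9.38, 8.81 and 2.38 in SIMVA-Radiation lungs, 8.05, 5.41 and 2.94 in Radiation lungs, 2.23, 4.86 and 2.54 in SIMVA lungs and 8.16, 7.92 and 6.71 in Control lungs, below the filter on 4 arrays and nearly so on another. Squamous epithelium markers, 12 of 14 past the filter with Krt6a and Krt6b below it, moved with it, at summed levels of 14.91, 16.87 and 11.29 in SIMVA-Radiation lungs, 14.34, 11.37 and 10.77 in Radiation lungs, 11.17, 10.59 and 11.19 in SIMVA lungs and 16.51, 16.54 and 11.60 in Control lungs. Their part in it was not tested. F2r, the thrombin receptor PAR1, differed by 0.46 ± 0.27 in Radiation minus Control (adjusted p = 0.751) and by −0.33 ± 0.27 in SIMVA-Radiation minus Radiation (adjusted p = 0.835), with overlapping arrays in both.

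**Figure D5:**
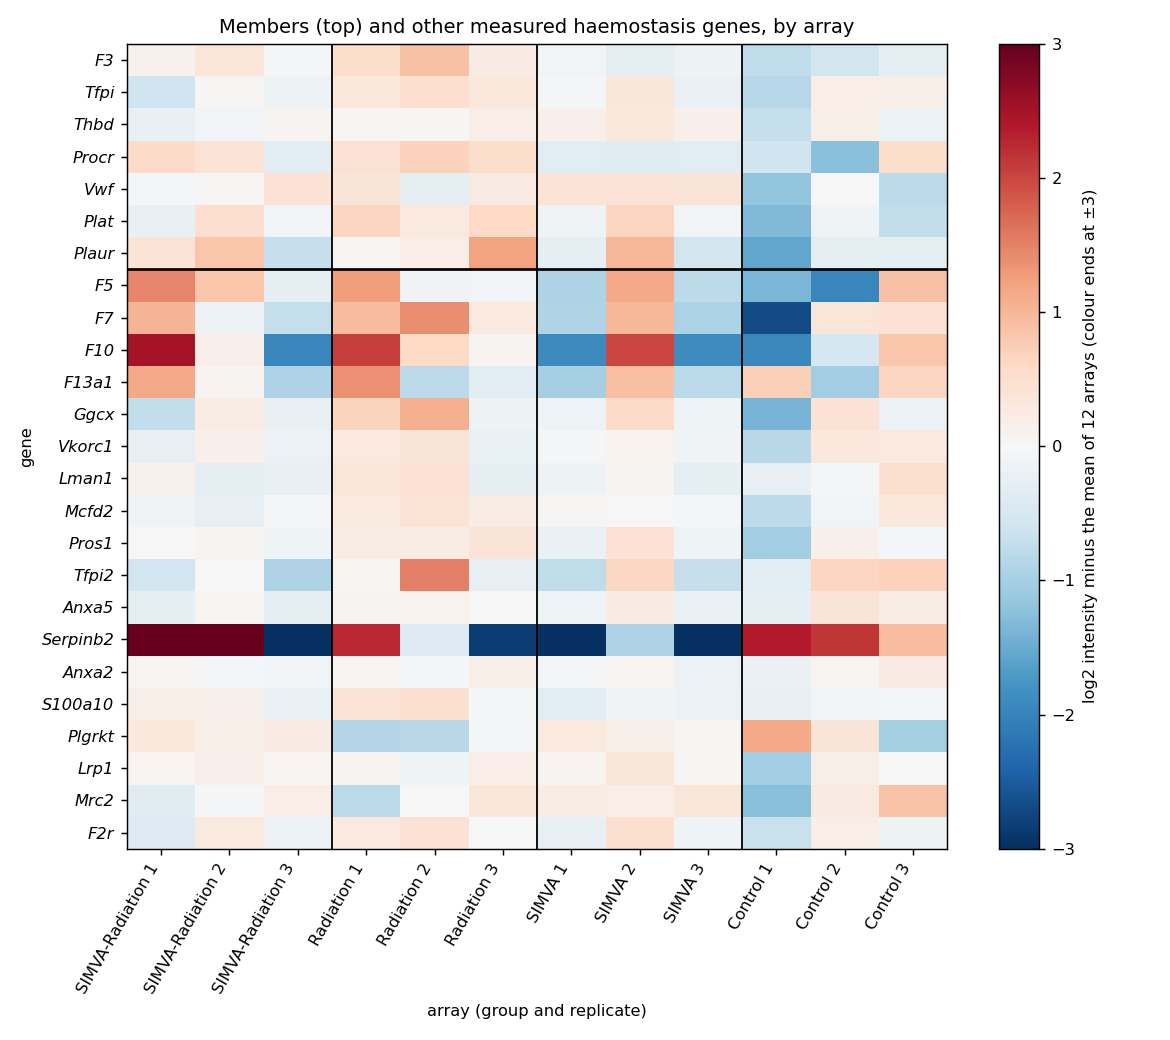
Log2 intensity of the 7 measured members (above the line) and 18 other measured haemostasis genes on the 12 arrays, each as the difference from that gene's mean over the arrays, with red above and blue below the mean and groups divided by vertical lines. Control 1 is below the mean for all 7 members, and Serpinb2 and F10 vary more between arrays of 1 group than any member.

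Endothelial genes known to respond to statins in cultured cells were all measured, 6 of 6, and 0 passed the test. Their median was 0.84 in SIMVA minus Control and 0.86 in SIMVA-Radiation minus Control, with 4 of 6 higher without overlap in each, against 3.36% and 2.67% of all genes. It was 0.74 in Radiation minus Control, without the drug, with 3 of 6 higher against 4.86%. Without Control 1 the 3 medians were 0.52, 0.49 and 0.41. The 18 endothelial markers were above 0 in 18, 11 and 16 of 18 in the same 3 comparisons, and their part in these values was not tested. Klf4, a transcription factor that raises Thbd in endothelial cells, was log2 14.05, 14.32 and 14.12 in SIMVA-Radiation lungs, 13.68, 13.18 and 14.13 in Radiation lungs, 14.11, 13.76 and 14.13 in SIMVA lungs and 11.98, 13.53 and 12.76 in Control lungs. Its difference was 1.41 ± 0.36 in SIMVA-Radiation minus Control (adjusted p = 0.995), 1.18 ± 0.40 in SIMVA minus Control (adjusted p = 0.990) and 0.91 ± 0.36 in Radiation minus Control (adjusted p = 0.751). Rhob, a small GTPase that statins raise by blocking prenylation, differed by 0.83 ± 0.26 in SIMVA minus Control (adjusted p = 0.990), and its Radiation arrays, at 12.94, 12.95 and 13.48, also lay above its Control arrays, at 12.02, 12.86 and 12.79. Ccn2, connective tissue growth factor, differed by 1.02 ± 0.29 in Radiation minus Control (adjusted p = 0.751), again without overlap.

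Of 15 immediate early genes, whose products include the AP-1 and Egr factors, 14 were measured and 0 passed the test. Egr1 was log2 10.57, 11.43 and 11.53 in Radiation lungs and 12.49, 13.58 and 11.85 in Control lungs, lower without overlap (−1.46 ± 0.45, adjusted p = 0.751). Maff, a small Maf factor, was 8.89, 8.52 and 9.13 in Radiation lungs and 3.59, 6.99 and 7.96 in Control lungs, higher without overlap (2.67 ± 0.89, adjusted p = 0.751). The list as a whole had a median of −0.04 in Radiation minus Control, with 7 of 14 above 0. Of the 14, 1 was higher and 1 lower without overlap there, against 4.86% and 2.03% of all genes.

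Members were also set against each other and against all genes across the 11 samples. Over the 21 pairs of members, Pearson's r ran from −0.03 to 0.86 with a median of 0.55. The highest were Thbd with Vwf (0.86), Plat with Plaur (0.83) and Vwf with Plat (0.82). F3 was closest to Procr among the members (r = 0.78, rho = 0.74) and had r = 0.33 with Thbd.

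The genes most like F3, ranked by Pearson's r among 11602, were Scp2 (0.93), Tob1 (0.92) and Hs3st3b1 (0.91). The first for Tfpi was Snx7 (0.97), for Thbd Ccdc157 (0.98), for Procr Kpna1 (0.94), for Vwf Errfi1 (0.93), for Plat Rasgef1b (0.97) and for Plaur Tnfrsf12a (0.95). Esam, an endothelial adhesion molecule on the marker list, was the third for Thbd (0.97). These are the highest of many values over few samples and carry no test.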

How the data were processed

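Total lung RNA, extracted with Trizol, was labelled as biotinylated cRNA and hybridised to 12 arrays, per the labels' protocols. The deposited values are log2 intensities, 1 per probe set and array; the submitters' processing notes name MAS5 and GCRMA without version, role or setting. Array medians ran from log2 4.42 to 5.12 and were left as deposited. Arrays carry no counts, and their number limits the precision.

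Of 45101 probe sets, 64 Affymetrix controls were left out; 34945 had 1 gene symbol, 932 several and 9160 none in the platform annotation, and 34741 of those with 1 symbol matched RefSeq by Entrez identifier. Probe sets above log2 4.85 on at least 3 of 12 arrays were kept, 20073 of them, and the one with the highest mean stood for each of 11602 genes. Group means over 11 samples were fitted with limma 3.58.1 (R 4.3.3, 7 residual degrees of freedom, lmFit, eBayes with trend, two-sided, Benjamini-Hochberg over all genes). All adjusted p-values are from this fit. It was first tested on simulated data with the same independent spread for all genes and arrays, which does not show its power in these data. Members, lists and the averaging of SIMVA 1 and SIMVA 3 were chosen with earlier results of these data known.

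Named genes were the 8 members, Cdkn1a, the 3 genes most correlated with each member, the 2 genes of lowest p of each pathway list in each comparison (those in the text are examples), fixed endothelial transcription genes, and the brightest marker of each cell list. Alternatives were no filter, median centring, quantile normalization, no trend, array weights, the mean of all probe sets, a floor, 12 separate arrays, a replicate block, leaving out each array, and leaving out the 3 arrays at odds with their labels. The interaction was not tested, as it contains the comparison on which F3 was selected.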

Additional observations from a re-analysis of the deposited data

Results flagged for a closer look

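Some members had every array of a treated group on 1 side of the mean of its comparator in 1 background and every array on the opposite side in the other; these differences between differences were not tested. For F3, simvastatin went opposite ways by exposure: −0.40 in SIMVA-Radiation minus Radiation and 0.33 in SIMVA minus Control. Tfpi had −0.61 and 0.26 in the same comparisons, and Thbd had −0.17 and 0.47. Radiation went opposite ways by drug for Tfpi, with −0.34 in SIMVA-Radiation minus SIMVA and 0.54 in Radiation minus Control, and for Thbd, with −0.29 and 0.34. In the SIMVA group, counted as 2 samples, such a pattern needs few arrays, and SIMVA-Radiation 3 is near-identical to SIMVA 1 and SIMVA 3. The mean of the endothelial markers had −0.12 in SIMVA-Radiation minus Radiation, 0.51 in SIMVA minus Control, −0.35 in SIMVA-Radiation minus SIMVA and 0.28 in Radiation minus Control, the same signs as Tfpi and Thbd. For Tfpi, SIMVA minus Control turned to −0.085 without Control 1 and to −0.055 with array weights, which ends its first pattern. Relative to the endothelial mean, SIMVA minus Control was −0.18 for F3, −0.24 for Tfpi and −0.038 for Thbd, and SIMVA-Radiation minus SIMVA was 0.017 for Tfpi and 0.058 for Thbd, which ends each of the patterns on that scale. With array weights, Thbd was −0.039 in Radiation minus Control.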

How the results depend on the processing

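Each member's difference was recomputed in each of 5 comparisons under 23 settings, 805 values in all, of which 769 kept their sign and 36 changed it. Many of the 769 could not change, since leaving out an array of a group outside a comparison leaves its difference as it was. No filter, no trend and the floor also left the members' differences as they were, so the share kept is no measure of stability. Of the values without a test, 8 kept their sign but moved by more than the spread between arrays, and 0 crossed the test's threshold. Array weights, which gave Control 1 0.159 and Control 2 3.54, called 1172 genes in SIMVA-Radiation minus Radiation, 43 in SIMVA-Radiation minus Control and 1241 in Radiation minus Control; without the 3 arrays at odds with their labels the counts were 2 in SIMVA-Radiation minus Control and 9 in Radiation minus Control. Leaving out each array gave 0 to 1 genes in these last 2 comparisons and 0 in the others.
Without the 3 arrays, SIMVA-Radiation minus SIMVA was 0.23 for Plat and 1.04 for Plaur, SIMVA-Radiation minus Radiation was −0.13 for Vwf and 0.13 for Plaur, and SIMVA-Radiation minus Control was 0.056 for Tfpi. With array weights, Plaur was 0.17 in SIMVA-Radiation minus SIMVA and 0.22 in SIMVA-Radiation minus Radiation, Vwf −0.10 in SIMVA-Radiation minus Radiation, Thbd −0.22 in SIMVA-Radiation minus Control and Tfpi −0.055 in SIMVA minus Control; in Radiation minus Control, Thbd was −0.039, Vwf 0.26, Plat 0.73 and Procr 1.63. Median centring gave Vwf −0.073 in SIMVA-Radiation minus Radiation; it moved the median of all genes to −0.17 there and to 0.14 in Radiation minus Control. Leaving out 1 array at a time gave ranges of −0.43 to 0.16 for Plat and −0.43 to 0.60 for Plaur in SIMVA-Radiation minus SIMVA, −0.19 to 0.14 for Vwf and −0.64 to 0.13 for Plaur in SIMVA-Radiation minus Radiation, −0.085 to 0.44 for Tfpi and −0.31 to 0.58 for Procr in SIMVA minus Control, and −0.42 to 0.11 for Tfpi and −0.063 to 0.38 for Thbd in SIMVA-Radiation minus Control. Relative to the endothelial mean, an alternative chosen after seeing the data, F3 was 0.71 in SIMVA-Radiation minus SIMVA, −0.18 in SIMVA minus Control and 0.80 in Radiation minus Control. Counting 12 arrays, with or without a replicate block, gave 0.13 for Plaur in SIMVA-Radiation minus SIMVA and 0 genes called in each comparison. Arrays of the same number in different groups deviated together with r of −0.26 to 0.41 (median 0.061, 8 of 18 pairs over 0.1). Other pairs had r of −0.52 to 0.42 (median −0.037, 9 of 36 over 0.1). Whether arrays of the same number share more than that number was not tested. Apart from the constructions named, the cause of the changes between settings was not tested. Plau, below the filter on all 12 arrays, was not measured well enough to compare.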
